A study of Homo sapiens with 12 samples.

Results

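Described here are hsa-miR-29a-3p, hsa-miR-148a-3p and hsa-miR-148b-3p, miRNAs known as regulators of DNA methyltransferases, and hsa-miR-26a-5p and hsa-miR-101-3p, known as regulators of the histone methyltransferase EZH2. They were chosen by name, with earlier results of these data known, as the rows of both tables that carry these names. They are 5 of the 153 miRNAs that either table lists. All 5 are listed in both tables. The small RNA came from exosomes, vesicles that cells release. The source was the human breast adenocarcinoma cell line MDA-MB-231. The 4 groups held 3 libraries each: parental cells without drug, parental cells given 56 µM cisplatin for 48 h, sorted CSC-like cells (those resembling cancer stem cells) without drug, and sorted CSC-like cells given the same cisplatin dose and time. Cisplatin, a platinum compound, forms crosslinks in DNA. All groups share 1 cell line and serum from which exosomes had been depleted, and the marker used for the sort is not given in the sources used here.

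DNMT1 copies methylation to the new DNA strand after replication, whereas DNMT3A and DNMT3B place methyl groups on DNA that had none. EZH2 is the catalytic subunit of Polycomb repressive complex PRC2 and methylates histone H3 at lysine residues of silenced genes. A miRNA finds its target mRNA mainly through its seed, a short stretch near the 5′ end that pairs with the 3′ untranslated region (3′ UTR), and the pairing lowers the mRNA's translation or stability. In human cells miR-29 is known to act on DNMT3A and DNMT3B, miR-148 and its relative miR-152 on DNMT1, and miR-26a and miR-101 on EZH2. Both enzyme groups have been studied for their part in drug tolerance and stem-like states of tumour cells. No mRNA or protein was measured in these libraries, so the data hold the miRNAs and not their targets.

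The mature sequences are shown because the seeds assign these miRNAs to their families. They are RefSeq entries (GRCh38.p14), and all 5 were identical to the sequences in the deposited tables. Bases 2 to 8, the seed, are in capitals, 5′ to 3′.
hsa-miR-29a-3p: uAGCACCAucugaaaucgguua
hsa-miR-148a-3p: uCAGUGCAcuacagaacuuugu
hsa-miR-148b-3p: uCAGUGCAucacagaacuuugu
hsa-miR-26a-5p: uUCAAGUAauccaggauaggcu
hsa-miR-101-3p: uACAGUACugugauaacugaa
The 5 miRNAs carry 4 different seeds, since miR-148a-3p and miR-148b-3p share one. With positions counted from 1 at the 5′ end, miR-148b-3p differs from miR-148a-3p by C9U and U10C, so these 2 are told apart in sequencing by adjacent bases outside the seed. The other miRNAs with the same seeds are printed for the same reason.
miR-152-3p: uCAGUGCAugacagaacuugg
miR-29b-3p: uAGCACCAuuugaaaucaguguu
miR-29c-3p: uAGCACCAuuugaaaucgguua
miR-26b-5p: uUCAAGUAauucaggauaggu
Over the bases they have in common, miR-152-3p differs from miR-148b-3p by C10G and U20G, miR-29c-3p from miR-29a-3p by C10U alone, and miR-26b-5p from miR-26a-5p by C11U and C21U. The number of mismatches allowed when the authors' reads were assigned is not given in the sources used here, so a split between such near-identical miRNAs is uncertain.

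In GRCh38.p14 the mature miR-29a-3p lies on the minus strand at chr7:130876748-130876769, in an intron of a long noncoding RNA gene on the same strand. miR-148a-3p lies on the same chromosome and strand at chr7:25949922-25949943, outside other annotated genes. miR-148b-3p lies on the plus strand at chr12:54337278-54337299, in an intron of COPZ1, a subunit gene of the COPI vesicle coat. miR-26a-5p has 2 loci, chr3:37969413-37969434 on the plus strand in an intron of CTDSPL and chr12:57824658-57824679 on the minus strand in an intron of CTDSP2, which encode related small phosphatases. miR-101-3p also has 2 loci, chr1:65058442-65058462 on the minus strand outside other annotated genes and chr9:4850345-4850365 on the plus strand in an intron of RCL1. Counts of the mature miRNA cannot be divided between its loci. The 5 miRNAs thus stand on 7 loci on 5 chromosomes and share no host gene.

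Letters complementary to the seeds were searched in the longest annotated 3′ UTR of DNMT1, DNMT3A, DNMT3B and EZH2 (GENCODE v29, GRCh38, transcript sense strand only). The motifs were TGGTGCT for miR-29, TGCACTG for miR-148, TACTTGA for miR-26 and GTACTGT for miR-101, and no match overlapped another. The sites are shown with the match in capitals.
DNMT1, miR-148, chr19:10133612-10133633, minus strand: aggaatccccaacaTGCACTGa
DNMT3A, miR-29, first of 4, chr2:25233410-25233431, minus strand: acccgacttcataaTGGTGCTt
DNMT3B, miR-29, chr20:32809091-32809112, plus strand: tttactcttcttacTGGTGCTa
EZH2, miR-26, chr7:148807389-148807410, minus strand: ctttgaataaagaaTACTTGAa
EZH2, miR-101, first of 2, chr7:148807580-148807601, minus strand: ttcaggaacctcgaGTACTGTg
EZH2, miR-101, second of 2, chr7:148807525-148807546, minus strand: tctgaatttgcaaaGTACTGTa
The DNMT1 3′ UTR of 321 bases held 1 miR-148 match, a motif found in 2.99% of 1473 3′ UTRs of like length. The EZH2 3′ UTR of 262 bases held 1 miR-26 match, against 1.49% of 1273 3′ UTRs of like length with that motif, and 2 miR-101 matches, against 1.57% of the same 1273 with at least 1. The DNMT3B 3′ UTR of 1453 bases held 1 miR-29 match, and 13.2% of 2567 3′ UTRs of like length had one.

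DNMT3A has a 3′ UTR of 6424 bases. It held 4 miR-29 matches, where 40.2% of 779 3′ UTRs of like length held at least 1. It also held 1 miR-26 match and 1 miR-101 match, motifs present in 38.3% and 32.9% of those 3′ UTRs. Over all 19099 3′ UTRs the shares with a match were 14.4% for miR-29, 13.9% for miR-148, 11.6% for miR-26 and 9.95% for miR-101. A match is a description of the letters and not evidence of binding.

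**Figure D1:**
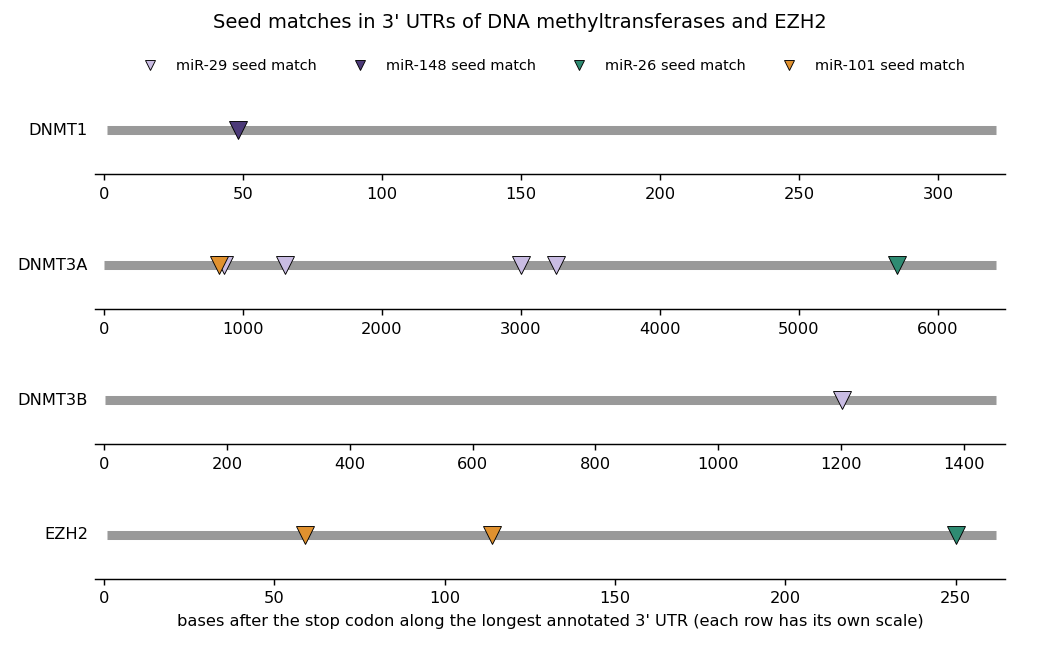
Positions of the letters complementary to each seed along the longest annotated 3′ UTR of DNMT1, DNMT3A, DNMT3B and EZH2, in bases after the stop codon; each gene has its own horizontal scale and each triangle is 1 match. The 321-base DNMT1 3′ UTR holds 1 miR-148 match, DNMT3A holds 4 miR-29 matches, and the 262-base EZH2 3′ UTR holds 2 miR-101 matches and 1 miR-26 match.

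Depth limits every value given here. The sum of listed counts was 2648 to 6622 in parental libraries, 1526 to 2522 in untreated CSC-like and 429 to 1877 in cisplatin-treated CSC-like libraries. Replicate 1 of the cisplatin-treated CSC-like group, with 429 counts, stands apart. For a miRNA not counted there, the exact 95% interval of its share still reaches 0.856%. Replicates 2 and 3 of that group could not be told apart from sampling noise and were counted as 1 sample, so its means rest on n = 2. The 5 miRNAs known to be abundant in MDA-MB-231 (miR-21-5p, miR-100-5p, miR-221-3p, miR-222-3p and miR-146a-5p) took 50.6% to 60.5% of the listed counts of each library. Most of these counts were miR-21-5p and miR-100-5p, whereas miR-222-3p was rare here, with 11 to 15 counts per group. Of 6 blood and serum miRNAs, 3 were listed in each table, with a summed share of 0% to 0.284%, 0.0302% to 0.366%, 0.119% to 0.184% and 0.0635% to 0.466% in untreated parental, cisplatin-treated parental, untreated CSC-like and cisplatin-treated CSC-like libraries. miR-144-3p and miR-223-3p of that list were listed in neither table. Of 5 epithelial miRNAs of the miR-200 family, 2 were listed, at no more than 0.373% of a library.

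All values below are counts of a mature miRNA or its share of all listed counts of the same library. In bulk vesicle RNA, fewer vesicles that carry a miRNA and less of it per vesicle cannot be told apart. Among the 137 miRNAs listed for parental exosomes, miR-148a-3p ranked 16th by summed count (216 counts), miR-26a-5p 29th (96), miR-148b-3p 34th (72), miR-29a-3p 39th (53) and miR-101-3p 48th (29). Among the 114 listed for CSC-like exosomes the order of the 5 was the same, with miR-148a-3p at rank 16 (90 counts), miR-26a-5p at 17 (81), miR-148b-3p at 36 (27), miR-29a-3p at 44 (20) and miR-101-3p at 55 (11). The mature sequences are 21 bases long for miR-101-3p and 22 for the others.

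hsa-miR-148a-3p, of the family known to act on DNMT1, had 22, 17 and 15 counts in the untreated parental libraries and 98, 33 and 31 in the cisplatin-treated parental libraries. These were shares of 0.624%, 0.642% and 0.375% without drug and of 1.48%, 0.929% and 0.790% with cisplatin. The parental groups did not overlap, and every cisplatin-treated library lay above every untreated one. In untreated CSC-like libraries it had 15, 9 and 10 counts (0.983%, 0.414% and 0.397%), and in cisplatin-treated CSC-like libraries 1, 23 and 32 counts (0.233%, 1.23% and 2.03%). The CSC-like groups overlapped, with the shallow replicate 1 lowest and replicate 3 highest of all 12 libraries. Its mean share was 1.07% ± 0.365 (SD, n = 3) in cisplatin-treated parental, 0.931% ± 0.987 (SD, n = 2) in cisplatin-treated CSC-like, 0.598% ± 0.334 (SD, n = 3) in untreated CSC-like and 0.547% ± 0.149 (SD, n = 3) in untreated parental exosomes. Neighbours in this order differed by less than their spread.

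hsa-miR-148b-3p, which shares the miR-148a-3p seed, was counted 8, 10 and 4 times in untreated and 27, 12 and 11 times in cisplatin-treated parental libraries. Its shares were 0.227%, 0.378% and 0.0999% without drug and 0.408%, 0.338% and 0.280% with cisplatin, and the groups overlapped. In CSC-like libraries it had 3, 4 and 6 counts without drug (0.197%, 0.184% and 0.238%) and 1, 6 and 7 with cisplatin (0.233%, 0.320% and 0.444%). The group means ran from 0.342% ± 0.0638 (SD, n = 3) in cisplatin-treated parental and 0.308% ± 0.105 (SD, n = 2) in cisplatin-treated CSC-like exosomes to 0.235% ± 0.139 (SD, n = 3) in untreated parental and 0.206% ± 0.0281 (SD, n = 3) in untreated CSC-like exosomes. Neighbours in this order had overlapping ranges.

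The balance within the miR-148 pair rests on few counts and was not tested between groups. miR-148a-3p made up 62.5% to 83.3% of the pair's counts in 11 libraries, and 1 of 2 counts in replicate 1 of the cisplatin-treated CSC-like group. By group it made up 71.7% ± 8.11 (SD, n = 3) in untreated and 75.2% ± 2.80 (SD, n = 3) in cisplatin-treated parental exosomes. In CSC-like exosomes it made up 71.7% ± 10.6 (SD, n = 3) without drug and 65.3% ± 21.7 (SD, n = 2) with cisplatin. The libraries' ranges overlapped between all 4 groups. Single libraries had wide exact 95% intervals, such as 35.4% to 84.8% in untreated CSC-like replicate 3.

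hsa-miR-29a-3p, of the family known to act on DNMT3A and DNMT3B, had 6, 5 and 2 counts in untreated and 8, 13 and 19 in cisplatin-treated parental libraries. The shares were 0.170%, 0.189% and 0.0499% without drug and 0.121%, 0.366% and 0.484% with cisplatin. Replicates 2 and 3 with cisplatin lay above every untreated library and replicate 1, the deepest library, did not. In CSC-like libraries it had 5, 4 and 5 counts without drug (0.328%, 0.184% and 0.198%) and 0, 3 and 3 with cisplatin (0%, 0.160% and 0.190%). Mean shares were 0.324% ± 0.185 (SD, n = 3) in cisplatin-treated parental, 0.237% ± 0.0791 (SD, n = 3) in untreated CSC-like, 0.136% ± 0.0754 (SD, n = 3) in untreated parental and 0.0876% ± 0.124 (SD, n = 2) in cisplatin-treated CSC-like exosomes. The ranges of neighbours in this order overlapped.

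hsa-miR-26a-5p, known to act on EZH2, had 9, 13 and 12 counts in untreated and 17, 21 and 24 in cisplatin-treated parental libraries. Its shares were 0.255%, 0.491% and 0.300% without drug and 0.257%, 0.591% and 0.612% with cisplatin, so the parental groups overlapped. In untreated CSC-like libraries it had 11, 16 and 27 counts (0.721%, 0.737% and 1.07%). Each of these 3 libraries lay above all 3 untreated parental libraries. The same held for 7.14% of the 98 miRNAs listed in both tables, and for 9.52% of the 63 with at least 15 counts. With cisplatin the CSC-like libraries held 1, 11 and 15 counts (0.233%, 0.586% and 0.952%), a spread that covers most of the range of the other groups. Mean shares were 0.843% ± 0.198 (SD, n = 3) in untreated CSC-like, 0.501% ± 0.379 (SD, n = 2) in cisplatin-treated CSC-like, 0.487% ± 0.199 (SD, n = 3) in cisplatin-treated parental and 0.349% ± 0.125 (SD, n = 3) in untreated parental exosomes. Neighbours in this order overlapped, and the first and last did not.

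hsa-miR-101-3p, the other miRNA known to act on EZH2, was the least abundant of the 5. It had 1, 3 and 0 counts in untreated parental libraries (0.0284%, 0.113% and 0%) and 10, 8 and 7 in cisplatin-treated ones (0.151%, 0.225% and 0.178%). The parental groups did not overlap. Untreated parental replicate 3 had 0 of 4005 counts, and its exact 95% interval reaches 0.0921%. CSC-like libraries held 0, 3 and 4 counts without drug (0%, 0.138% and 0.159%) and 0, 4 and 0 with cisplatin (0%, 0.213% and 0%). In both CSC-like groups the values overlapped, and no library held more than 4 counts. Mean shares were 0.185% ± 0.0375 (SD, n = 3) in cisplatin-treated parental, 0.0989% ± 0.0863 (SD, n = 3) in untreated CSC-like, 0.0533% ± 0.0753 (SD, n = 2) in cisplatin-treated CSC-like and 0.0472% ± 0.0590 (SD, n = 3) in untreated parental exosomes. Here too the ranges of neighbours overlapped.

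**Figure D2:**
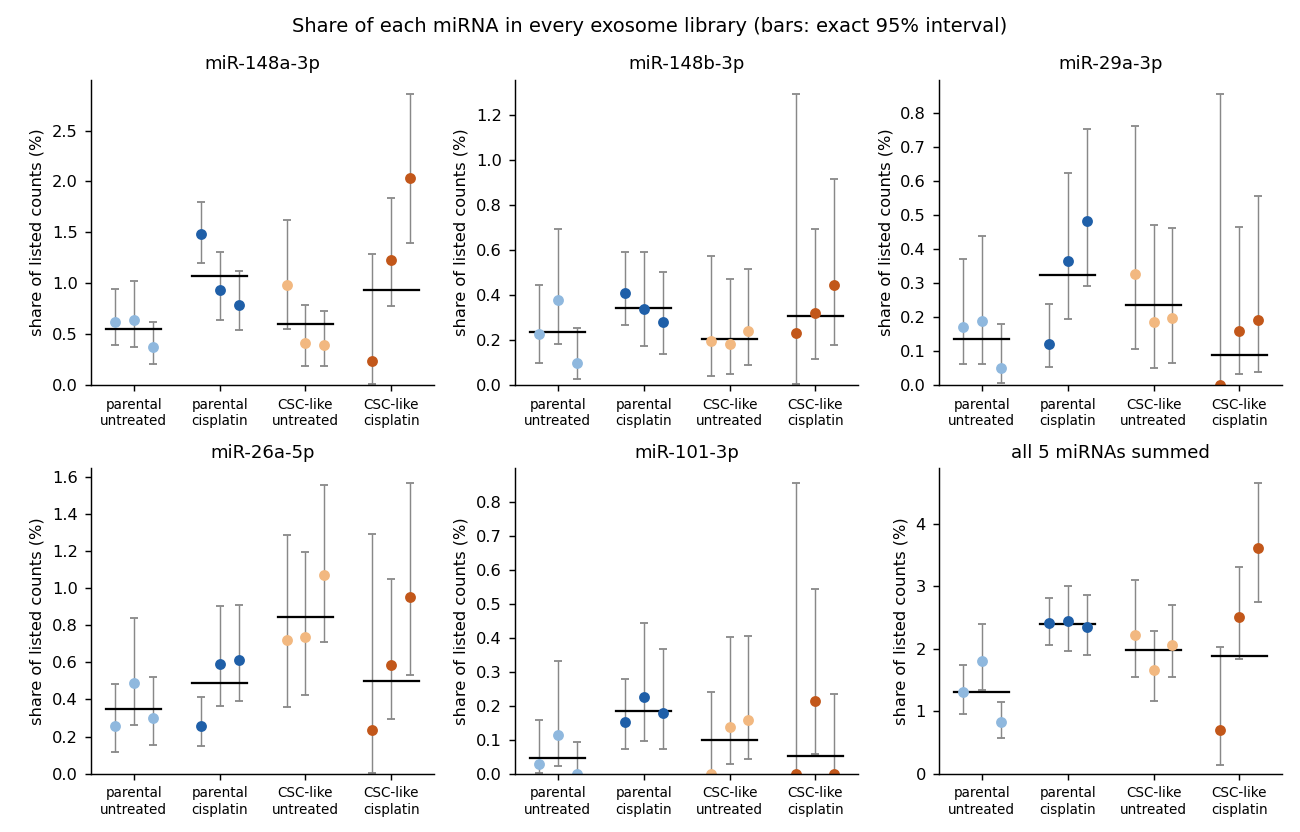
Share of listed counts (%, linear axes that differ between panels) of each miRNA and of their sum in every exosome library, by group; points are libraries 1 to 3 from left to right, grey bars exact (Clopper-Pearson) 95% intervals for counting error and black lines group means, with replicates 2 and 3 of the CSC-like cisplatin group entering as their mean. The cisplatin-treated parental libraries lie above the untreated ones for miR-148a-3p, miR-101-3p and the sum, and the untreated CSC-like libraries lie above the untreated parental ones for miR-26a-5p.

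Cisplatin in parental cells was the comparison with the most members on one side. All 5 miRNAs had a higher mean share with cisplatin than without, beside 47.4% of the 137 listed miRNAs with a fold above 0 in the authors' deposited table, and for miR-148a-3p and miR-101-3p the groups did not overlap. Of all 137 listed miRNAs, 8.03% were higher without overlap, and 12.5% of the 72 with at least 15 counts. The mean share with cisplatin was 1.95 times the untreated mean for miR-148a-3p, 3.92 times for miR-101-3p, 2.37 times for miR-29a-3p, 1.46 times for miR-148b-3p and 1.40 times for miR-26a-5p.

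None of these differences passed edgeR's test. edgeR's quasi-likelihood test (Benjamini-Hochberg adjustment over the 37 miRNAs that passed the filter on low counts) tested 3 of the 5 and called 0, beside 5.41% called among all 37. It also gave 0 of the 3 at an unadjusted p under 0.05, and DESeq2 called 0. Fitted log2 fold changes were 0.60 ± 0.711 (SE; adjusted p = 0.790) for miR-148a-3p, 0.21 ± 0.575 (adjusted p = 0.843) for miR-148b-3p and 0.20 ± 0.599 (adjusted p = 0.843) for miR-26a-5p. The median log2 fold change was 0.21 over these 3 and −0.27 over all 37. Scaling by library totals in place of TMM (trimmed mean of M-values) moved the median of all 37 up by 0.28, and it put the 3 miRNAs at 0.97, 0.57 and 0.48.

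hsa-miR-29a-3p and miR-101-3p had too few counts for the filter in this comparison. An exact two-sided permutation test of their shares over the 6 libraries gave p = 0.300 for miR-29a-3p and p = 0.100 for miR-101-3p, and 0.1 is the smallest p that 3 against 3 libraries allow. With no filter, edgeR over 137 miRNAs put miR-29a-3p at 1.00 ± 0.844 (log2, SE; adjusted p = 0.935) and miR-101-3p at 1.88 ± 1.15 (adjusted p = 0.865).

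The authors' deposited table of cisplatin against untreated parental exosomes carries its own signed folds and unadjusted p-values. For miR-29a-3p the authors' deposited table gives a fold of 2.38 and p = 0.00103, which is 0.0259 after Benjamini-Hochberg adjustment over the 137 listed miRNAs, and 4.38% of the 137 were higher at an adjusted p under 0.05. For miR-101-3p the authors' deposited table gives a fold of 4.10 and p = 0.00380, or 0.0743 adjusted. For miR-148a-3p it is a fold of 2.03 and p = 0.0291 in the authors' deposited table, or 0.332 adjusted. The folds of miR-148b-3p and miR-26a-5p in the authors' deposited table were 1.49 and 1.32, with unadjusted p = 0.159 and p = 0.186. Of the 137 miRNAs in the authors' deposited table, 9.49% were higher at an unadjusted p under 0.05, and 3 of these 5 miRNAs were among them. Because the 5 were chosen with earlier results of these data known, that count is a description and not a test.

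Summed, the 5 miRNAs had 46, 48 and 33 counts in untreated parental libraries and 160, 87 and 92 with cisplatin. Their summed share was 1.30%, 1.81% and 0.824% without drug and 2.42%, 2.45% and 2.34% with cisplatin. The 3 treated libraries lay close together and all above the untreated ones. The means were 1.31% ± 0.494 (SD, n = 3) and 2.40% ± 0.0536 (SD, n = 3), a difference of 1.09 percentage points. The narrow spread of the treated sums was not a narrow spread of the members. miR-148a-3p supplied 61.3% of the summed counts in cisplatin replicate 1, 37.9% in replicate 2 and 33.7% in replicate 3, while miR-29a-3p and miR-26a-5p had their lowest share of the 3 treated libraries in replicate 1.

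The miRNAs of the DNA methyltransferases and of EZH2 both contributed to that difference. The DNA methyltransferase miRNAs took 1.02%, 1.21% and 0.524% of untreated and 2.01%, 1.63% and 1.55% of cisplatin-treated parental libraries, with no overlap. The EZH2 miRNAs took 0.284%, 0.604% and 0.300% of untreated and 0.408%, 0.816% and 0.790% of cisplatin-treated parental libraries, which overlapped. Since these are shares, the abundant miRNAs bear on them. miR-21-5p had 237, 586 and 350 counts in untreated and 1891, 1208 and 1299 in cisplatin-treated parental libraries, and miR-100-5p had 1802, 566 and 1784 against 1430, 568 and 644. With miR-21-5p and miR-100-5p left out of the totals, the summed share was 3.09%, 3.21% and 1.76% without drug and 4.85%, 4.90% and 4.64% with cisplatin, again without overlap, and the difference of means was 2.11 percentage points.

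**Figure D3:**
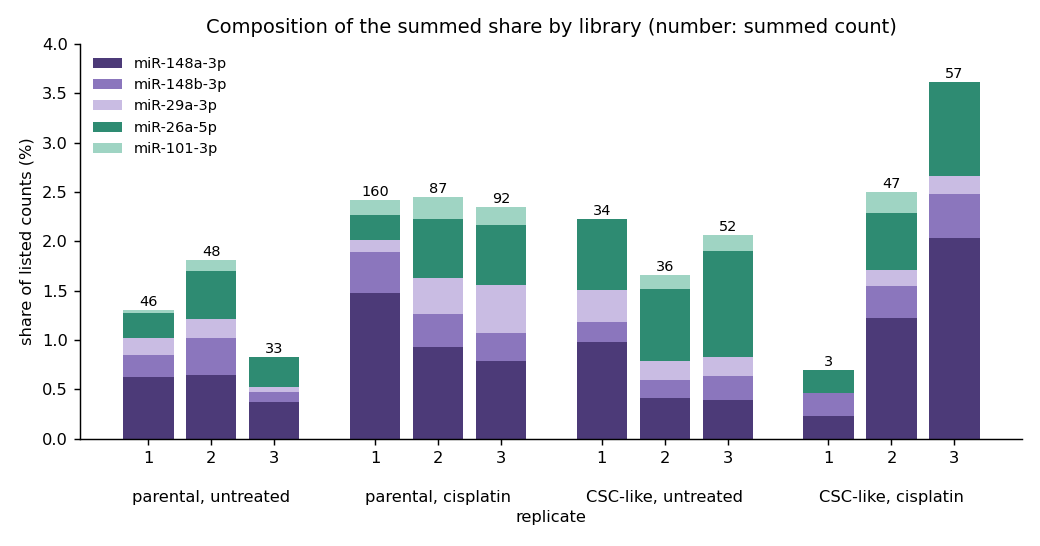
Summed share of listed counts (%) of the 5 miRNAs in each library, stacked by miRNA, with the summed count printed above each bar; purple shades are the miRNAs known to act on DNA methyltransferases and green shades those known to act on EZH2. The 3 cisplatin-treated parental bars reach 2.34% to 2.45%, while replicate 1 of the cisplatin-treated CSC-like group rests on 3 counts.

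In CSC-like cells the mean shares of the 5 miRNAs did not share a direction with cisplatin. The mean share with cisplatin was 1.56 times the untreated mean for miR-148a-3p and 1.49 times for miR-148b-3p, and it was 0.595 times for miR-26a-5p, 0.539 times for miR-101-3p and 0.370 times for miR-29a-3p. The lower means depend in part on the shallow replicate 1. Leaving it out took the share difference of miR-101-3p from −0.0456 to 0.00764 percentage points. For miR-29a-3p the same step took it from −0.149 to −0.0615. Taken library by library, every member's groups overlapped, while 2.63% of the 114 listed miRNAs were higher and 3.51% lower without overlap. With replicates 2 and 3 as 1 sample, miR-29a-3p was at 0% and 0.175% with cisplatin, below the lowest untreated library at 0.184%, and the other 4 overlapped. On that basis 5.26% of the 114 were higher and 7.02% lower without overlap. The 0% of miR-29a-3p is 0 of 429 counts, and its exact 95% interval reaches 0.856%, above every untreated library. Replicate 3 alone, at 0.190%, lay above the untreated library at 0.184%. edgeR tested 2 of the 5 and called 0, with 0 at an unadjusted p under 0.05 and 0 by DESeq2, beside 3.45% called among all 29 miRNAs tested. On the log2 scale miR-148a-3p was at 0.90 ± 0.859 (SE; edgeR adjusted p = 0.990) and miR-26a-5p at −0.57 ± 0.909 (adjusted p = 0.990), against a median of −0.15 over all 29. Without the library of 429 counts miR-148a-3p was at 1.88 and miR-26a-5p at 0.23. With replicates 2 and 3 kept separate they were at 1.40 and −0.15.

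For the members below the filter in CSC-like cells, the exact two-sided permutation test of shares gave p = 0.200 for miR-29a-3p, p = 0.4 for miR-148b-3p and p = 0.6 for miR-101-3p, where 0.2 is the smallest p that 3 against 2 samples allow. In the authors' deposited table for CSC-like exosomes the folds were 2.06 for miR-148a-3p, 1.62 for miR-148b-3p, −1.92 for miR-29a-3p, −1.32 for miR-26a-5p and −1.25 for miR-101-3p, a minus sign marking a fall. None of the 5 had a p under 0.05 in the authors' deposited table, where 7.89% of the 114 miRNAs did.

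The summed share in CSC-like exosomes was 2.23%, 1.66% and 2.06% without drug and 0.699%, 2.50% and 3.62% with cisplatin. The treated values lie on both sides of the untreated ones. The means were 1.98% ± 0.293 (SD, n = 3) and 1.88% ± 1.67 (SD, n = 2), and the difference of −0.102 percentage points became 1.08 without replicate 1, whose sum was 3 counts. The DNA methyltransferase miRNAs took 1.51%, 0.783% and 0.833% without drug and 0.466%, 1.70% and 2.67% with cisplatin. The EZH2 miRNAs took 0.721%, 0.875% and 1.23% without drug and 0.233%, 0.799% and 0.952% with cisplatin.

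Whether the response to cisplatin differed between the populations was tested as an interaction term in a joint fit of all 4 groups, which kept 48 of 98 shared miRNAs. edgeR tested 4 of the 5 and called 0, with 0 at an unadjusted p under 0.05 and 0 by DESeq2, beside 2.08% called among all 48. The difference of log2 responses, CSC-like minus parental, was −1.48 (SE 1.44, adjusted p = 0.870) for miR-29a-3p and −0.60 (SE 1.17, adjusted p = 0.884) for miR-26a-5p. It was 0.51 (SE 1.29, adjusted p = 0.902) for miR-148a-3p and 0.57 (SE 1.23, adjusted p = 0.884) for miR-148b-3p. The median over all 48 was 0.36, and library totals moved it down to −0.28. The opposite mean directions of miR-29a-3p and miR-26a-5p in the 2 populations were thus not called as a difference. miR-101-3p was below the filter, and without a filter edgeR put its difference at −1.89 ± 1.62 (SE; adjusted p = 0.944).

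Before treatment, miR-26a-5p had the largest ratio of mean shares between the populations among the 5. Its mean share was 2.42 times as high in CSC-like as in parental exosomes, with all 3 CSC-like libraries above all 3 parental ones, as were 7.14% of the 98 miRNAs listed in both tables and 9.52% of the 63 with at least 15 counts. edgeR tested miR-26a-5p and miR-148a-3p and called 0, with 0 at an unadjusted p under 0.05 and 0 by DESeq2, beside 3.33% called among all 30. The log2 difference, CSC-like over parental, was 0.93 (SE 0.873, adjusted p = 0.656) for miR-26a-5p and −0.39 (SE 0.876, adjusted p = 0.943) for miR-148a-3p. The value of miR-26a-5p was 0.27 without untreated CSC-like replicate 3 and 1.64 without untreated parental replicate 2. The median over all 30 was −0.32, and library totals moved it up by 0.45 and took miR-148a-3p to 0.10. The 2 tables were deposited separately, and the counts on miRNAs listed in both made up 98.6% to 99.7% of each library.

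The remaining miRNAs were compared by their shares in untreated exosomes. Mean shares in CSC-like exosomes were 1.74 times those in parental exosomes for miR-29a-3p, 2.09 times for miR-101-3p and 0.878 times for miR-148b-3p, and their groups overlapped. An exact two-sided permutation test gave p = 0.2, p = 0.5 and p = 0.8, respectively. The summed share of the 5 was 0.669 percentage points higher in CSC-like than in parental exosomes, with overlap. The EZH2 miRNAs accounted for most of it, at 0.942% ± 0.261 (SD, n = 3) against 0.396% ± 0.181 (SD, n = 3) without overlap, while the DNA methyltransferase miRNAs were at 1.04% ± 0.405 (SD, n = 3) against 0.918% ± 0.353 (SD, n = 3) with overlap. Within the EZH2 pair the difference was mainly that of miR-26a-5p, at 0.494 percentage points, against 0.0517 for miR-101-3p.

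Under cisplatin, mean shares of 4 of the 5 were lower in CSC-like than in parental exosomes. Mean shares in CSC-like exosomes were 0.271 times those in parental exosomes for miR-29a-3p, 0.288 times for miR-101-3p, 0.873 times for miR-148a-3p, 0.899 times for miR-148b-3p and 1.03 times for miR-26a-5p. In these means replicate 1 of the CSC-like group, with 429 counts, weighs as much as replicates 2 and 3 together. Leaving replicate 1 out took the summed share difference from −0.523 to 0.658 percentage points, so the lower means depend on that library. Taken library by library, the ranges overlapped for each of the 5, while 5.1% of the 98 miRNAs were higher and 6.12% lower without overlap. With replicates 2 and 3 of the CSC-like group as 1 sample, miR-101-3p was at 0% and 0.107%, below the lowest parental library at 0.151%, and the other 4 overlapped. On that basis 8.16% of the 98 were higher and 11.2% lower without overlap. The 0% of miR-101-3p is 0 of 429 counts, and its exact 95% interval reaches 0.856%, above every parental library. Its 0.107% is the mean of 0.213% in replicate 2 and 0% in replicate 3. edgeR tested 4 and called 0, with 0 at an unadjusted p under 0.05 and 0 by DESeq2, beside 2.38% called among all 42. The log2 difference, CSC-like over parental, was −0.93 (SE 0.952, adjusted p = 0.848) for miR-29a-3p, 0.49 (SE 0.697, adjusted p = 0.856) for miR-26a-5p, 0.27 (SE 0.798, adjusted p = 0.900) for miR-148a-3p and 0.21 (SE 0.659, adjusted p = 0.900) for miR-148b-3p. For the miR-148 pair the sign of the fitted difference, scaled by TMM, is thus opposite to that of the mean shares, and with library totals the values were 0.017 and −0.022. For miR-101-3p the exact two-sided permutation test of shares gave p = 0.200, the smallest that 3 against 2 samples allow.

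**Figure D4:**
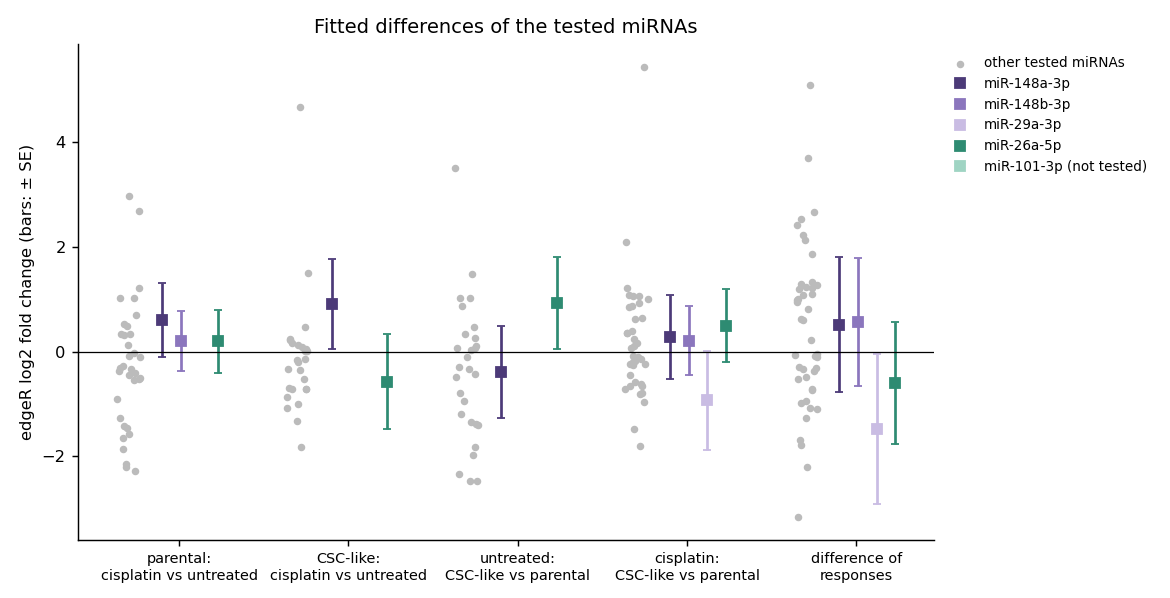
Fitted edgeR log2 fold changes (vertical axis) in the 5 comparisons; coloured squares are those of the 5 miRNAs that passed the filter on low counts, with bars of 1 SE, and grey points are the other miRNAs tested. The squares lie between −1.48 and 0.93, within the spread of the grey points of their comparison.

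The seed relatives were much rarer than the members. miR-152-3p, the third carrier of the miR-148 seed, had 1, 3 and 2 counts in untreated and 6, 5 and 3 in cisplatin-treated parental libraries, and 1, 1 and 1 against 0, 2 and 1 in CSC-like libraries. miR-26b-5p was listed for parental exosomes only, with 1, 1 and 1 counts without drug and 1, 3 and 1 with cisplatin. miR-29b-3p was listed for CSC-like exosomes only, with 1 count in a single library of each group, and miR-29c-3p in neither table. None of the 4 relatives passed the filter in any comparison. None of the 6 opposite arms looked for was listed in either table.

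Another 8 miRNAs known from human cells to act on DNA methyltransferases or EZH2 were examined in the same way. For parental exosomes 5 were listed (miR-143-3p, miR-342-3p, miR-185-5p, miR-138-5p and miR-98-5p) and for CSC-like exosomes 2 (miR-138-5p and miR-98-5p). No library held more than 4 counts of any of them, and none passed the filter. miR-214-3p, miR-124-3p and miR-217-5p were not listed in either table.

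Across the 12 libraries the members did not move as one. On log2 shares, Pearson's r between pairs of members ran from 0.04 for miR-148a-3p with miR-101-3p to 0.62 for miR-148a-3p with miR-148b-3p. These are descriptions over libraries whose listed totals ran from 429 to 6622 counts, and shares within a library rest on the same total. The most like patterns among 40 other miRNAs with at least 60 counts were miR-30a-5p for miR-148a-3p (r = 0.69), miR-378a-3p for miR-148b-3p (r = 0.81) and for miR-101-3p (r = 0.74), and miR-146a-5p for miR-29a-3p (r = 0.67) and for miR-26a-5p (r = 0.76). The sum of the 5 was most like miR-27b-3p (r = 0.81) and miR-22-3p (r = 0.77).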

How the data were processed

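Small RNA libraries of exosomes from 4 groups, 3 each, were used. Per the labels' protocols, RNA was extracted with ExoRNeasy and libraries were made with the NEB-Next multiplex small RNA kit. Per the submitters' processing notes, cutadapt and FastQC were used. No aligner, genome build or miRNA release was given in the sources used here. Per the file headers, the deposited tables (1 per cell population) hold untransformed whole read counts per miRNA and replicate. They also hold a score, which is the signed fold change that the authors computed from weighted proportions, and an unadjusted p-value, which the authors took from Baggerley's test on proportions. Tables list only miRNAs counted in both of their groups, so one lost or gained entirely with cisplatin would not appear. Of each file, 1 line was left out (not analysed here).

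The 5 members and the lists of relatives, opposite arms, other regulators and markers were chosen with earlier results of these data known. All members are named in each comparison, and others only from those lists or as the 2 most like patterns. Listed totals (429 to 6622 counts) served as library sizes. The main test was edgeR 4.0.16 (R 4.3.3) with limma 3.58.1: filterByExpr (minimum count 10, minimum total 15), TMM, quasi-likelihood test and Benjamini-Hochberg adjustment over all miRNAs tested, at 0.05. Comparisons between populations used the 98 miRNAs listed in both tables. Alternatives were DESeq2 1.42.0, its size factors, library totals, other filters, 1 model over the 4 groups, a replicate block, separate libraries, and leaving out each library. Members below the filter were compared by two-sided exact permutation of shares (scipy 1.17.1), not adjusted for the number compared. SEs are the fold change divided by the square root of F. Intervals, also those for a count of 0, are Clopper-Pearson 95% and reflect counting error alone, as reads carry no stated molecular identifiers. Likeness used log2 shares with a pseudocount of 0.5.

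Replicates 2 and 3 of the cisplatin-treated CSC-like group were compared by chi-square (minimum 10 counts per miRNA over both libraries; 1.18 per degree of freedom, p = 0.212; 10.1 and 8.08 for the other pairs) and summed as 1 sample. Replicates 2 and 3 of the cisplatin-treated parental group were nearly as alike (1.48 per degree of freedom, chi-square p = 0.012). The other pairs of that group were at 16.1 and 16.4, and its 3 replicates were kept as separate samples. The sources used here do not say whether replicates are separate cultures, so the p-values rest on a spread between samples that may be technical.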

Additional observations from a re-analysis of the deposited data

How the results depend on the processing

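No member was called in any comparison under any alternative that tested it. With the main filter miR-101-3p was tested in no comparison. With that filter miR-29a-3p was tested only between cisplatin-treated exosomes and for the difference of responses. Of 453 alternative values, counts of miRNAs called included, 397 were labelled as the same, 25 as reversed and 31 as moved. A tested value was the same if it kept its direction and side of the threshold. With no test, a share difference was the same if it moved by less than 1 SD between replicates. Among these, 6 values of summed share differences changed sign. A count of calls could shift under this label, as from 2 to 3 in parental cells with at least 15 counts. The number of all miRNAs called moved more. For cisplatin in parental cells it was 2, against 4 with DESeq2, 0 with no filter, 7 in the model over the 4 groups and 1 to 8 with a library left out. In CSC-like cells it was 1, against 1 with replicates 2 and 3 separate, 0 with a replicate block on those separate libraries, and 0 to 1 with a library left out. For untreated exosomes it was 1, against 2 with DESeq2 size factors, 5 in the model over the 4 groups and 0 to 3 with a library left out. For cisplatin-treated exosomes it was 1, against 2 with DESeq2. For the difference of responses it was 1, against 2 with library totals, 2 with separate libraries, 0 with at least 15 counts, 0 with a replicate block on separate libraries and 0 to 2 with a library left out.

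Directions of small fitted changes were not stable. With a library left out, the parental log2 fold change ranged from −0.26 to 0.76 for miR-148b-3p and from −0.25 to 0.45 for miR-26a-5p, and that of miR-26a-5p in CSC-like cells from −0.73 to 0.23. In untreated exosomes miR-148a-3p was 0.10 with library totals, and miR-26a-5p was 0.27 to 1.64 with a library left out. In cisplatin-treated exosomes miR-148a-3p was −0.032 with at least 15 counts, −0.0023 in the model over the 4 groups and −0.25 to 0.87 with a library left out. There miR-148b-3p was −0.022 with library totals, −0.019 with no filter, −0.057 with at least 15 counts, −0.032 in the model over the 4 groups and −0.17 to 0.42 with a library left out, and miR-26a-5p −0.0022 to 0.92. The difference of responses was −0.15 with library totals and −0.53 to 0.83 with a library left out for miR-148a-3p, and −0.22 to 0.86 for miR-148b-3p. Share differences changed direction for miR-101-3p in CSC-like cells (−0.0989 to 0.00764 percentage points) and for miR-148b-3p in untreated exosomes (−0.0960 to 0.0429). With a library left out, the summed share difference ran from −0.381 to 1.08 for cisplatin in CSC-like cells and from −0.802 to 0.658 between cisplatin-treated exosomes (−0.523 with all), positive there without CSC-like replicate 1. The summed share difference, without miR-21-5p and miR-100-5p in the totals, was 2.11 percentage points in parental cells and 1.09 between untreated exosomes. The cause was not tested.

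Whether replicate numbers pair the samples is not known: deviations of same-numbered libraries correlated at −0.69 to 0.53 over the comparisons. For cisplatin the values were 0.41, 0.44 and −0.014 in parental cells and −0.69, −0.68 and 0.53 in CSC-like cells. Between populations all were negative for untreated and all positive for cisplatin-treated exosomes. With 3 libraries per group these values cannot decide it. With the replicate block, fitted on separate libraries, 0 members were called and miR-148a-3p was at 0.64 in parental and 1.27 in CSC-like cells, against 1.40 in CSC-like cells with separate libraries alone. Depth limits all of this: no member exceeded 98 counts in a library, and replicate 1 of cisplatin-treated CSC-like cells held 3 counts of the 5 together.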
